A study of Mus musculus with 10 samples.

Results

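Mitochondrial ribosomal proteins were followed through hearts of mice depleted of Ft1. The group holds every gene of the deposited tables named Mrpl or Mrps with a number, the letter l marking the large subunit and s the small subunit of the mitochondrial ribosome. These are 77 of the 17575 genes that appear in at least 1 table, and all of them have a test in each of the 3 comparisons. By name 48 are of the large and 29 of the small subunit, and all counts per subunit below follow the name. The small subunit by name thus includes Mrps18a, Mrps30 and Mrps36, whose proteins sit elsewhere, as described below. The members were chosen by name and not by any measured value.

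RNA was sequenced from hearts of male mice at 1 week of age, with 3 Ft1ko, 4 Ft1sm22ko and 3 WT animals. Ft1 is the mouse name used here for Aktip, a factor at the nuclear envelope with a role in telomere integrity. Ft1ko mice descend from a cross of floxed Ft1 with a CMV-cre line and lack the gene constitutively. Ft1sm22ko mice carry the floxed gene with a sm22-cre, driven by the promoter of Tagln, a gene of smooth muscle, so that other cells of the heart should keep Ft1. Whether WT animals carried a cre or a floxed allele is not given in the sources used here. A sm22 promoter can also be active in developing cardiomyocytes, and the cells that recombined were not identified in these data.

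Mitochondria keep a small genome whose protein products are subunits of the respiratory chain and of ATP synthase. These products are made by a ribosome of their own, the mitoribosome, whose RNA comes from the mitochondrial genome and whose proteins are all encoded in the nucleus and imported. The small subunit decodes the messenger RNA and the large subunit forms the peptide bond and carries the exit tunnel, which faces the inner membrane. Many of the proteins descend from the bacterial ribosome, and others were added in the course of mitochondrial evolution. Cardiomyocytes, the contracting cells of the heart, are among the cells richest in mitochondria, and their mitochondria expand and mature after birth.

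To show what their promoters look like, 7 are given here, from 250 bases before to 50 bases after the annotated start. Mrps21, Mrpl51, Mrpl42 and Mrpl33 had some of the lowest levels relative to WT in Ft1ko hearts, Mrpl24 hardly differed between the mutants, and Mrpl3 and Mrps22, chosen after their values were seen, did not pass the test in any comparison. Capitals mark exact matches, on either strand, to GCGCATGC (the NRF1 motif), CCGGAAGT (GABPA) or AAGATGGC (YY1), factors known to bind promoters of nuclear genes for mitochondrial proteins. All sequences are from RefSeq on GRCm38.p6 and read 5′ to 3′ on the strand of the gene. Mrps21 lies at chr3:95871465-95871764 on the minus strand and holds none of the 3 motifs.
Mrps21: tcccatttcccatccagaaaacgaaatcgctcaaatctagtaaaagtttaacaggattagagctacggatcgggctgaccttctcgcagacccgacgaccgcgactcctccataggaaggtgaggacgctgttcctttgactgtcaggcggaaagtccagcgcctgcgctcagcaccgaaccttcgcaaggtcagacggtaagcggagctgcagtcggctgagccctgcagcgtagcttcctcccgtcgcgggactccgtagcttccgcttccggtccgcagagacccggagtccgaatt
Mrpl51 lies at chr6:125191950-125192249 on the plus strand, with a GABPA motif 90 bases before the start.
Mrpl51: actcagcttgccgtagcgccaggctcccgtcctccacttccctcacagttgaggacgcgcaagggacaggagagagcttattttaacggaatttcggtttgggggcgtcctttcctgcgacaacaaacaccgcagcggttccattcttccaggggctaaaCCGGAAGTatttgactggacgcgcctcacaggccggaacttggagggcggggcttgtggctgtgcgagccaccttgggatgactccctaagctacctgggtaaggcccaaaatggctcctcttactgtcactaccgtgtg
Mrpl42 lies at chr10:95501900-95502199 on the minus strand, with a YY1 motif past the start.
Mrpl42: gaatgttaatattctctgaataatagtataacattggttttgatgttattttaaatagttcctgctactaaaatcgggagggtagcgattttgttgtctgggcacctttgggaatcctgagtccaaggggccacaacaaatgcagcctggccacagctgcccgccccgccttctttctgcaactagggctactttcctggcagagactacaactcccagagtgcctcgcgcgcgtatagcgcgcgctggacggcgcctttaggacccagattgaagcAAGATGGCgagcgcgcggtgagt
Mrpl33 lies at chr5:31613701-31614000 on the plus strand, where the motifs of NRF1 and GABPA stand 1 base apart. The NRF1 motif lies just before the start and the GABPA motif runs across it.
Mrpl33: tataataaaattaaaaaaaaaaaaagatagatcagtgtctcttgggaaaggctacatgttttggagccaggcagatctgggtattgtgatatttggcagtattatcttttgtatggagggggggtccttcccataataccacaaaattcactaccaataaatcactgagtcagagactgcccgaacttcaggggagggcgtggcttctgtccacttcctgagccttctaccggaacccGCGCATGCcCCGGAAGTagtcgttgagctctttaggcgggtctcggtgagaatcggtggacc
Mrpl24 lies at chr3:87919294-87919593 on the plus strand and holds none of the 3 motifs.
Mrpl24: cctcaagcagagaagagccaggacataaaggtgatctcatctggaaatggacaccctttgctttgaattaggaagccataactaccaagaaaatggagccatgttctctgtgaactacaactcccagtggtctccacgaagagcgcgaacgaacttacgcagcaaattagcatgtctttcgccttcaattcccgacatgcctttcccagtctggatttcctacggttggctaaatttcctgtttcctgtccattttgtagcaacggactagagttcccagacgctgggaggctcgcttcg
Mrpl3 lies at chr9:105053018-105053317 on the plus strand, with a GABPA motif 19 bases before the start.
Mrpl3: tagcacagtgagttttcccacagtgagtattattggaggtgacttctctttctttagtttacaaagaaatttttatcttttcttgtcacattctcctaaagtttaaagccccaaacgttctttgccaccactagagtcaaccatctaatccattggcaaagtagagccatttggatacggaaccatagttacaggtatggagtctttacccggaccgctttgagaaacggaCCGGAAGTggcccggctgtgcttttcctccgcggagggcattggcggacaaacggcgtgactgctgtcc
Mrps22 lies at chr9:98601630-98601929 on the minus strand, with a GABPA motif 11 bases before the start.
Mrps22: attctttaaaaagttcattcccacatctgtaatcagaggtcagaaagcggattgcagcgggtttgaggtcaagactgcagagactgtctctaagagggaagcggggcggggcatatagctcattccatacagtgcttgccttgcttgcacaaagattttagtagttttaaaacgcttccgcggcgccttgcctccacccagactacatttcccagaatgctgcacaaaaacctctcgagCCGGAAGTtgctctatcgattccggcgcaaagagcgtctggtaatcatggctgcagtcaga

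Promoters of 68 members were found in the RefSeq table. The YY1 motif was in 12 of them (17.6%), against 3.98% of the 12455 promoters of tested genes. The GABPA motif was in 11 (16.2%, against 6.93%) and the NRF1 motif in 8 (11.8%, against 4.7%). At least 1 of the 3 was in 28 members (41.2%), against 14.6% of all promoters. The SP1 motif GGGCGGGG was in 16 members (23.5%) and less common than in all promoters (30.9%), and the E-box CACGTG was in 5 (7.35%, against 9.54%). Both strands were searched for each motif, the E-box reads the same on both, and no motif contains another. The motif of the estrogen-related receptors, TCAAGGTCA, was in 0 members and 0.257% of all promoters. A match is a string of letters and not a measured site. In Ft1ko hearts the median log2 fold change over WT was -0.99 for members with the YY1 motif and -1.07 for those without, -0.76 and -1.10 for GABPA, -0.70 and -1.12 for NRF1, -1.16 and -1.04 for SP1, and -1.35 and -1.04 for the E-box. These medians are descriptions with no test.

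The tables give, for each gene and pair of groups, a mean count over both groups of hearts, and from DESeq2 a log2 fold change, its standard error and a Wald p. They give no value per heart, so neither the spread between hearts nor library depth is known here, nor in how many hearts a change was seen. The means of each group below, in normalized counts, were derived from the mean, the group sizes and the fold change, and carry no error. The tables were normalized separately, and means are set side by side only within a table. Fold changes are written as mutant over WT, or Ft1sm22ko over Ft1ko. Changes were called at a Benjamini-Hochberg adjusted p under 0.05 over all genes with a p in that table. The same WT hearts serve both comparisons with WT, and the same mutants return in the comparison between them, so that the 3 sets of values are not independent. Aktip itself averaged 174.5 normalized counts in Ft1ko and 663.9 in WT hearts (log2 fold change -1.93, standard error 0.27), and 387.2 in Ft1sm22ko against 893.6 in WT (-1.21, standard error 0.27).

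In WT hearts all members were well detected. Divided by the length of the longest coding transcript in kilobases, the highest level was that of Mrpl42 with 6947 normalized counts per kilobase, followed by Mrps21 with 3996, Mrpl12 with 2766 and Mrpl33 with 2167. The lowest were Mrpl17 with 60.6, Mrpl47 with 69.3 and Mrpl3 with 86.4. The transcript used in the heart may be shorter than the longest one annotated, which would raise these levels. The lowest mean of any member was 151.0 normalized counts in the table of Ft1ko against WT, so none was near the detection limit.

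**Figure D1:**
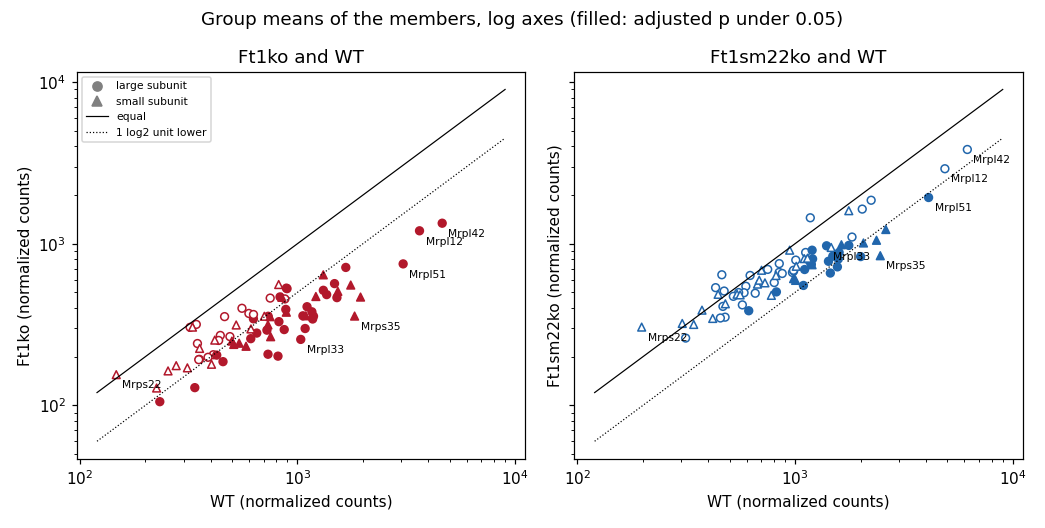
Group means of the 77 members in normalized counts on log axes, with Ft1ko (left) or Ft1sm22ko (right) on the vertical and WT on the horizontal axis; filled symbols have an adjusted p under 0.05. The solid line marks equal means and the dotted line a log2 fold change of -1, and in Ft1ko hearts all members but Mrps22 lie below the solid line.

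In Ft1ko hearts the RNA of mitochondrial ribosomal proteins was lower than in WT. Of the 77 members 48 fell and none rose, while 16.1% of all genes tested fell and 19.7% rose. At an unadjusted p under 0.05, 54 were lower and 0 higher, and with a Bonferroni adjustment 8 were lower, beside 4.04% of all genes. The median member was at 46.7% of its WT level, a log2 fold change of -1.10, and 76 of 77 members had a value below 0. The middle of the members, between the 25th and 75th percentile, ran from -1.49 to -0.79. The median of all genes tested was 0.13, and for genes averaging at least 100 normalized counts it was -0.11. Set against these medians in place of 0, the members had a median of -1.23 and -0.99. Summed over all members, Ft1ko hearts held 40.9% of the counts of WT hearts.

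**Figure D2:**
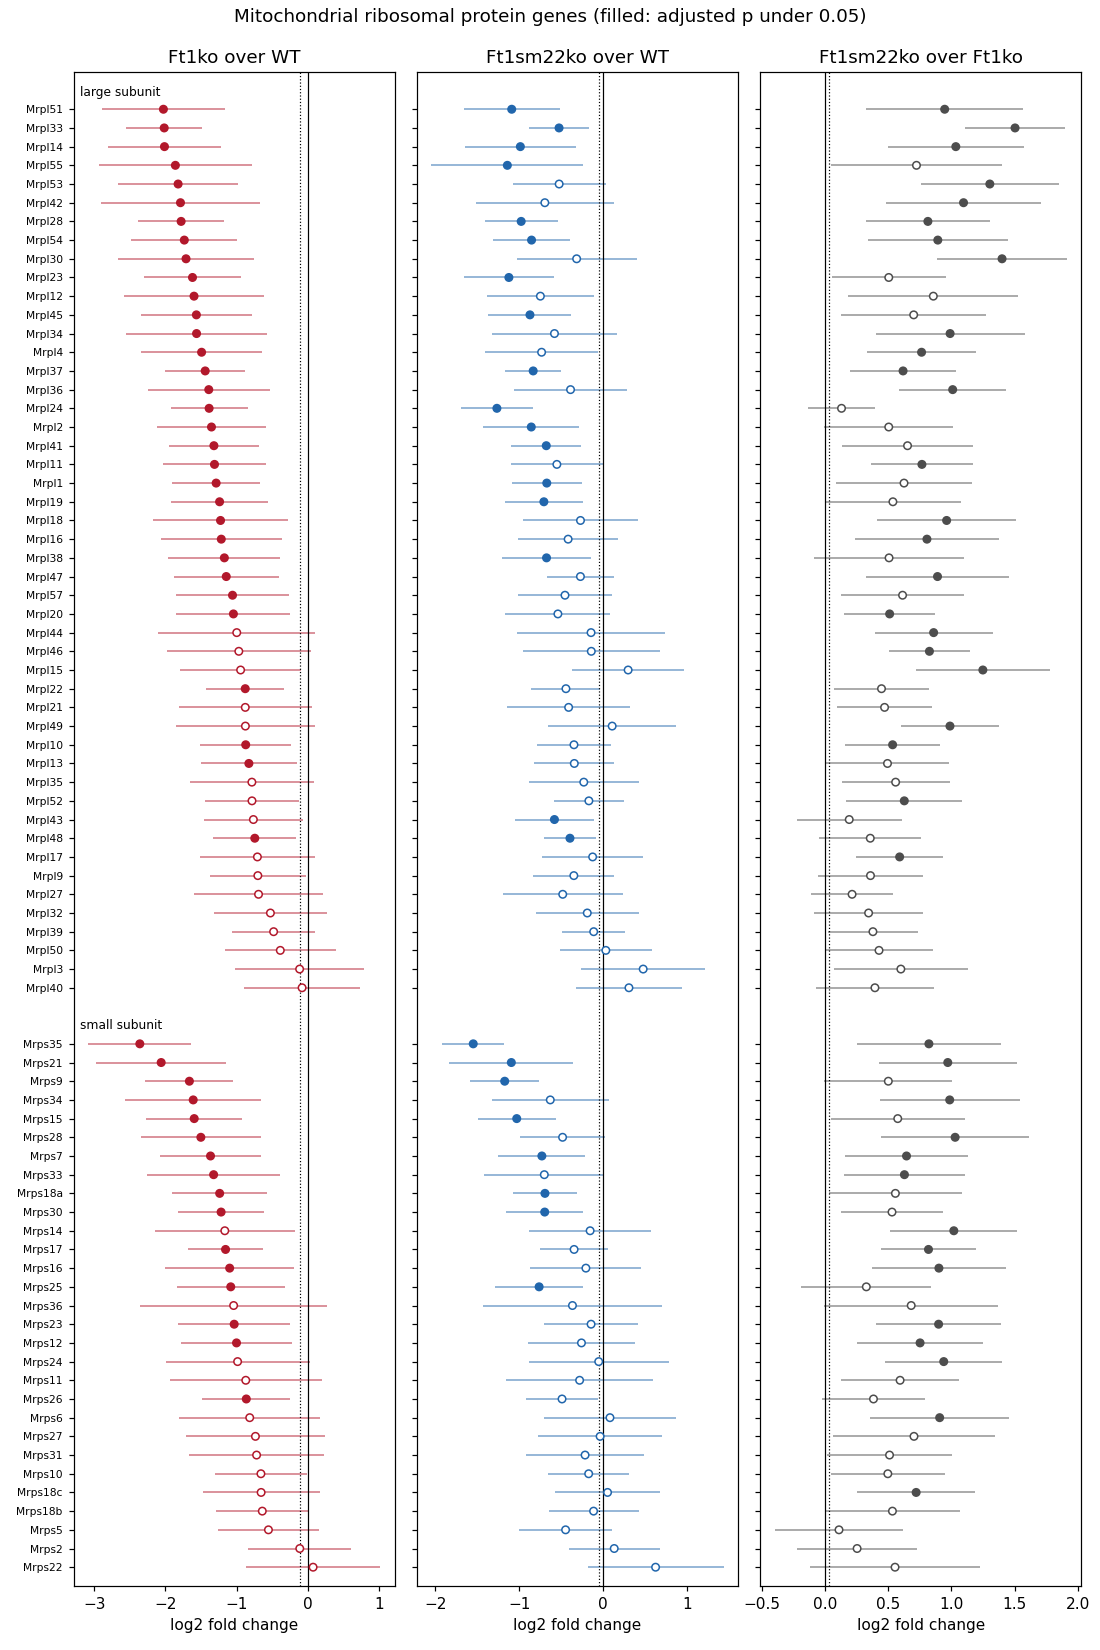
Log2 fold changes of the 77 members with 95% intervals, 1 row a gene, large subunit and small subunit apart, in the 3 comparisons (each mutant over WT, and Ft1sm22ko over Ft1ko); filled points have an adjusted p under 0.05 and the dotted line is the median of all genes averaging at least 100 normalized counts. Points lie to the left of 0 for 76 and 68 members in the comparisons with WT and to the right of 0 for all 77 between the mutants.

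The deepest fall among the members was that of Mrps35, a small subunit protein with no bacterial counterpart. It averaged 356.8 normalized counts in Ft1ko and 1831 in WT hearts, a log2 fold change of -2.36 (standard error 0.37, adjusted p = 7.06e-09). Mrps21, a relative of bacterial S21, averaged 467.7 against 1950 (-2.06, standard error 0.46, adjusted p = 8.54e-05). In the large subunit Mrpl51 averaged 750.3 in Ft1ko and 3061 in WT hearts (-2.03, standard error 0.44, adjusted p = 4.94e-05). These 3 genes stood at 19.5%, 23.99% and 24.5% of WT. Mrpl33, a small protein of bacterial ancestry, was at 255.9 against 1036 (-2.02, standard error 0.27, adjusted p = 1.41e-11), the smallest p of all members. Mrpl14, which lies at the interface with the small subunit, was at 201.6 against 814.1 (-2.01, standard error 0.40, adjusted p = 8.46e-06). Mrpl55, Mrpl53 and Mrpl42, all added in mitochondrial evolution, fell by 1.86, 1.82 and 1.79 on the log2 scale. Mrpl42, the most abundant member per length, averaged 1339 in Ft1ko and 4626 in WT hearts.

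The smallest falls that passed the test were those of Mrpl48 (-0.74, standard error 0.30, adjusted p = 0.0372), Mrpl13 (-0.83, standard error 0.35, adjusted p = 0.0478), Mrps26 (-0.86, standard error 0.32, adjusted p = 0.0216), Mrpl10 (-0.87) and Mrpl22 (-0.88, standard error 0.28, adjusted p = 0.00724). Mrps16, with -1.10 and an adjusted p of 0.0494, lay just inside the threshold. Mrps14 with -1.17 (standard error 0.50, adjusted p = 0.0549) and Mrpl52 with -0.78 (standard error 0.34, adjusted p = 0.0567) lay just outside it. The size of a change did not decide its call alone, since the standard errors differed between members. A few genes, chosen after their values were seen, were close to WT. Mrps22 averaged 154.9 normalized counts in Ft1ko and 147.1 in WT hearts (0.07, standard error 0.48), the one value above 0. Mrpl40, Mrps2 and Mrpl3 had log2 fold changes of -0.08, -0.11 and -0.11. The 95% interval of Mrpl3 ran from -1.02 to 0.79, so a change as large as that of the median member lies only just outside it. Over all members the standard deviation of the fold changes was 0.50 and the median standard error 0.40.

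Members of both subunits and of both origins fell. In the large subunit 32 of 48 fell (median log2 fold change -1.19), and in the small subunit 16 of 29 fell (median -1.04). Of members with a bacterial counterpart 31 of 48 fell (median -1.16), and of those particular to mitochondria 17 of 28 (median -1.05). By role, the stalk of the large subunit, which recruits translation factors, had Mrpl12 at 1202 normalized counts in Ft1ko and 3640 in WT hearts (-1.60, adjusted p = 0.00603). Its anchor Mrpl10 was at 343.1 against 628.0 (-0.87, adjusted p = 0.0238). Mrpl11, at the base of the stalk, was at 291.9 against 724.2 (-1.31, adjusted p = 0.00219). Mrps12, whose bacterial relative sits at the decoding centre, was at 249.8 against 500.1 (-1.0, adjusted p = 0.0355). Mrps30, which carries a small subunit name but sits in the large subunit, was at 314.8 against 732.2 (-1.22, adjusted p = 5.71e-04).

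The S18 family has 3 paralogs in mammals, of which Mrps18a sits in the large subunit and Mrps18b and Mrps18c in the small one. Mrps18a averaged 377.0 normalized counts in Ft1ko and 889.3 in WT hearts (-1.24, standard error 0.34, adjusted p = 0.00166). Mrps18b averaged 163.4 against 254.4 (-0.64, adjusted p = 0.123) and Mrps18c 176.1 against 277.3 (-0.66, adjusted p = 0.221), and neither passed the test. The difference between the paralogs was not tested. Mrps36, now known as a subunit of the oxoglutarate dehydrogenase complex rather than of the ribosome, had 297.0 against 611.5 (-1.04, standard error 0.67, adjusted p = 0.224). Its standard error was wide, and its 95% interval of -2.35 to 0.27 includes 0.

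In Ft1sm22ko hearts the same family was lower than in WT by less. Of the 77 members 25 fell and none rose, where 16.0% of all genes fell and 16.2% rose. At an unadjusted p under 0.05 the counts were 30 and 0, and with a Bonferroni adjustment 4 fell, beside 3.75% of all genes. The median member was at 73.6% of WT, a log2 fold change of -0.44, and 68 members lay below 0. The median of all genes tested was 0.06, and -0.05 for those averaging at least 100 normalized counts. The summed counts were 67.0% of WT. With a log2 fold change of at least 1 besides the threshold, 8 members fell, or 10.4% beside 8.73% of all genes, where in Ft1ko 43 did (55.8% beside 12.5%). In the large subunit 17 of 48 fell (median -0.47) and in the small subunit 8 of 29 (median -0.34), and 14 of 48 of bacterial ancestry (-0.41) stood beside 11 of 28 particular to mitochondria (-0.51).

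Mrps35 was again the lowest, with 842.9 normalized counts in Ft1sm22ko and 2464 in WT hearts (-1.55, standard error 0.19, adjusted p = 6.25e-14). Mrpl24, of bacterial ancestry, averaged 832.5 against 2002 (-1.27, standard error 0.22, adjusted p = 2.71e-07), and Mrps9, also of bacterial ancestry, 1050 against 2367 (-1.17, standard error 0.21, adjusted p = 6.05e-07). These 3 genes stood at 34.2%, 41.6% and 44.4% of WT. Mrpl55 with -1.14, Mrpl23 with -1.12, Mrps21 with -1.09, Mrpl51 with -1.09 and Mrps15 with -1.03 completed the falls of more than 1 on the log2 scale. Mrpl23 lies near the exit of the peptide tunnel. At the small end Mrpl48 fell by 0.39 (standard error 0.16, adjusted p = 0.0411) and Mrpl33 by 0.52 (standard error 0.19, adjusted p = 0.0186). Mrpl43 was just inside the threshold with -0.58 (adjusted p = 0.0485), and Mrpl12 with -0.75 (adjusted p = 0.0636) and Mrps26 with -0.49 (adjusted p = 0.0740) were just outside.

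Several members were at or above WT in Ft1sm22ko hearts. Mrpl15, a large subunit protein of bacterial ancestry, averaged 1447 normalized counts in Ft1sm22ko and 1175 in WT hearts (0.30, standard error 0.34, adjusted p = 0.541). Mrpl3 and Mrps22, chosen after their values were seen, had 642.6 against 460.9 (0.48, adjusted p = 0.349) and 304.9 against 197.4 (0.63, adjusted p = 0.249). None of these passed the test. Of the role genes, Mrps18a was at 741.1 against 1197 (-0.69, adjusted p = 0.00224) and Mrps30 at 608.2 against 984.7 (-0.70, adjusted p = 0.0127). Mrpl10 (-0.35), Mrpl11 (-0.55), Mrps12 (-0.26), Mrps18b (-0.11), Mrps18c (0.05) and Mrps36 (-0.36) did not pass.

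The direct comparison of both mutants tested whether the levels differed between them. Ft1sm22ko hearts had the higher level for 38 of 77 members and a lower one for none, where 10.8% of all genes were higher and 9.0% lower. At an unadjusted p under 0.05 the counts were 59 and 0, and with a Bonferroni adjustment 5 were higher, all of the large subunit, beside 1.53% of all genes. All 77 fold changes lay above 0, and the median was 0.63, or 154% of the Ft1ko level. The median of all genes tested was -0.05, and 0.03 for those averaging at least 100 normalized counts. The summed counts were 165% of those in Ft1ko. With a log2 fold change of at least 1 the count was 9, or 11.7% beside 4.51% of all genes. Large and small subunit had like medians of 0.63 and 0.64, with 24 of 48 and 14 of 29 members called.

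Mrpl33 differed most, with 1565 normalized counts in Ft1sm22ko and 552.2 in Ft1ko hearts (log2 fold change 1.50, standard error 0.20, adjusted p = 1.77e-10). Mrpl30, of bacterial ancestry, had 2638 against 999.5 (1.40, standard error 0.26, adjusted p = 8.57e-06). Mrpl53 had 1101 against 446.2 (1.30, standard error 0.28, adjusted p = 1.19e-04), and Mrpl15 2331 against 981.4 (1.25, standard error 0.27, adjusted p = 1.48e-04). These 4 large subunit genes were more than 2 times as high in Ft1sm22ko, as were Mrpl42 (6159 against 2883, 1.10), Mrpl14 (891.6 against 435.3, 1.03), Mrps28 (1169 against 572.8, 1.03), Mrps14 (785.5 against 387.7, 1.02) and Mrpl36 (561.0 against 278.7, 1.01). The smallest differences that passed were those of Mrpl20 (0.51, adjusted p = 0.0336), Mrpl10 (0.53, adjusted p = 0.0334) and Mrpl17 (0.59, adjusted p = 0.00805). Mrps7, with 0.64 and an adjusted p of 0.0485, and Mrps33, with 0.63 and 0.0498, were just inside. Mrps30 (0.53, adjusted p = 0.0521) and Mrpl35 (0.56, adjusted p = 0.0522) were just outside.

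Not every gene that was low in both mutants differed between them. Mrpl24 averaged 1336 normalized counts in Ft1sm22ko and 1221 in Ft1ko hearts (0.13, standard error 0.13, adjusted p = 0.547), with a 95% interval of -0.13 to 0.39. Set side by side, Mrpl24 had -1.39 in Ft1ko and -1.27 in Ft1sm22ko relative to WT, and Mrpl33 had -2.02 and -0.52. Mrps35, the lowest in both, had 1357 against 768.2 between the mutants (0.82, standard error 0.29, adjusted p = 0.0293). Mrps9, chosen here for its place in Ft1sm22ko, had 0.50 (adjusted p = 0.164). For the paralogs, Mrps18c was higher in Ft1sm22ko (627.8 against 381.0, 0.72, adjusted p = 0.0179), while Mrps18a had 0.56 (adjusted p = 0.131) and Mrps18b 0.53 (adjusted p = 0.155). The fold changes of the members between the mutants had a standard deviation of 0.28 beside a median standard error of 0.25.

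Mitoribosomal proteins with other names were lower as well. Of 6 such genes 5 fell in Ft1ko (83.3% beside 16.1% of all genes, median -1.21) and 5 in Ft1sm22ko (83.3% beside 16.0%, median -0.71). Gadd45gip1, a large subunit protein, was at 293.1 normalized counts in Ft1ko and 1067 in WT hearts (-1.86, adjusted p = 6.39e-05), and at 638.6 in Ft1sm22ko against 1433 in WT (-1.17, adjusted p = 1.39e-04). Aurkaip1, of the small subunit, had -1.64 and -0.78. Dap3, a GTP-binding small subunit protein, had -1.01 and -0.63, and Ptcd3, of the small subunit, -1.09 and -0.54. Ict1, the older name under which the tables list Mrpl58, a peptidyl-tRNA hydrolase that rescues stalled ribosomes, had -1.33 and -0.80. Chchd1 had -1.01 and -0.35 and did not pass in either (adjusted p = 0.144 and 0.566). Between the mutants Aurkaip1 alone passed, with 0.86 (adjusted p = 0.00229), or 16.7% of the 6 beside 10.8% of all genes.

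The rest of the mitochondrial translation apparatus moved less evenly. Of 16 translation factors 7 fell in Ft1ko (43.8%, median -0.97), beside 16.1% of all genes. In Ft1sm22ko 1 fell (6.25%, median -0.22), beside 16.0% of all genes. Between the mutants 8 were higher in Ft1sm22ko (50.0%, median 0.71), beside 10.8% of all genes. Pdf, which removes the formyl group from new chains, had -1.82 in Ft1ko (adjusted p = 1.12e-04) and 1.31 between the mutants (adjusted p = 5.54e-06). Mtif2, the initiation factor, had -1.14 in Ft1ko (adjusted p = 2.78e-05) and was the one that fell in Ft1sm22ko (-0.84, adjusted p = 5.15e-04). Gfm2, which recycles ribosomes, had -1.12 in Ft1ko (adjusted p = 2.41e-05). Of 22 assembly factors of the mitoribosome 10 fell in Ft1ko (45.5%, median -0.75), beside 16.1% of all genes. In Ft1sm22ko 5 fell (22.7%, median -0.25), beside 16.0% of all genes, and 1 rose, Mettl15 (4.55%, beside 16.2%). Eral1, a chaperone of the small subunit RNA, had -1.33 (adjusted p = 3.69e-05) and -1.06 (adjusted p = 8.07e-09), and Rbfa -1.06 and -0.83. Between the mutants 7 assembly factors were higher in Ft1sm22ko (31.8% beside 10.8% of all genes, median 0.37). Mtg2, a GTPase of large subunit assembly, had 1.19 (adjusted p = 1.68e-05).

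Mitochondrial aminoacyl-tRNA synthetases fell in 5 of 17 cases in Ft1ko (median -0.57) and in 5 of 17 in Ft1sm22ko (median -0.22). Between the mutants 5 of 17 were higher in Ft1sm22ko (median 0.42). Each of these counts is 29.4% of the list, beside 16.1%, 16.0% and 10.8% of all genes in the same order. The largest of these changes, Lars2 with -4.79 and -4.26, stood far from Tars2 with -1.43 and -1.02. Lars2 also stood apart in level, with 12332 normalized counts in Ft1ko and 342270 in WT hearts. The next highest synthetase in WT, Iars2, averaged 1195. Whether the reads counted for Lars2 come from its messenger RNA was not tested. Of 12 genes of mitochondrial DNA transcription and replication 3 fell in Ft1ko (median -0.50) and 2 in Ft1sm22ko (median -0.39), and 3 were higher between the mutants (median 0.07). Polrmt, the mitochondrial RNA polymerase, had -1.20 (adjusted p = 5.49e-05) and -0.78 (adjusted p = 2.01e-05). Genes of the mitochondrial genome itself, the ribosomal RNAs included, were not analysed here.

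Respiratory chain subunits made in the cytosol had a lower median than the members in both mutants. Of 82 such genes 72 fell and 1 rose in Ft1ko (median -2.05) and 34 fell in Ft1sm22ko (median -0.71). Between the mutants 74 were higher in Ft1sm22ko (median 1.31). The shares of 87.8% and 41.5% lower and 90.2% higher stood beside 16.1%, 16.0% and 10.8% of all genes. Cox6c, of cytochrome c oxidase, had -3.02 and -1.09 over WT, and Ndufa2, of complex I, -2.75 and -1.45. Genes of mitochondrial protein import came near to the members, with 16 of 26 lower in Ft1ko (median -1.15), 7 lower in Ft1sm22ko (median -0.34) and 15 higher between the mutants (median 0.65). Their shares of 61.5%, 26.9% and 57.7% stood beside the same shares of all genes. Timm44, which tethers the import motor, had -1.41 and -0.85. Proteins of the cytosolic ribosome moved less, with 18 of 82 lower in Ft1ko (median -0.31), 12 lower and 3 higher of 83 in Ft1sm22ko (median -0.07), and 16 higher and 1 lower between the mutants (median 0.23). The difference between these lists and the members was not tested.

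**Figure D3:**
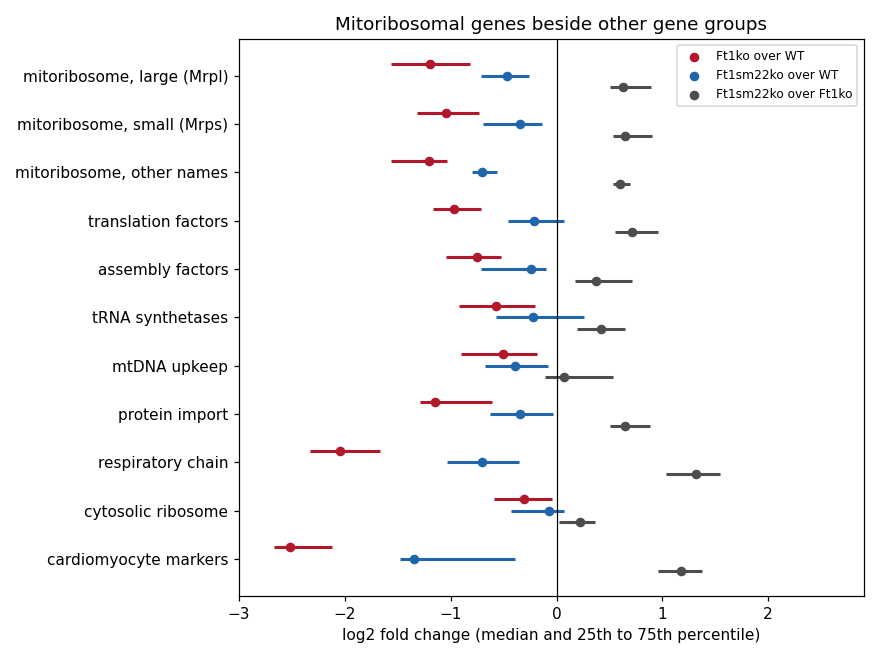
Points give the median and bars the span from the 25th to the 75th percentile of the log2 fold changes of large subunit, small subunit and other gene lists, in each mutant over WT and between the mutants. The members lie between the cytosolic ribosome (median -0.31 in Ft1ko) and the respiratory chain (-2.05).

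Regulators of nuclear genes for mitochondrial proteins moved in both directions. Ppargc1a, a coactivator of mitochondrial biogenesis, averaged 490.7 normalized counts in Ft1ko and 2301 in WT hearts (-2.23, adjusted p = 1.09e-04), and 1190 in Ft1sm22ko against 3125 in WT (-1.39, adjusted p = 0.00357). Its relative Ppargc1b had -2.90 (adjusted p = 1.51e-05) and -3.49 (adjusted p = 1.01e-12), and Esrra, a nuclear receptor that works with both, -2.26 (adjusted p = 6.09e-09) and -1.60 (adjusted p = 1.14e-09). Esrrg fell in Ft1ko (-1.30, adjusted p = 6.69e-04) and had -0.42 in Ft1sm22ko (adjusted p = 0.293). Between the mutants Ppargc1a (0.86, adjusted p = 0.0247), Esrrg (0.89, adjusted p = 0.0321) and Mycn (1.44, adjusted p = 0.00292) were higher in Ft1sm22ko. Of the factors whose motifs were searched, Gabpa was higher in Ft1ko (0.75, adjusted p = 0.00639) and in Ft1sm22ko (0.97, adjusted p = 3.50e-07), as was Sp1 with 0.70 (adjusted p = 0.0337) and 0.81 (adjusted p = 1.36e-07). Gabpb2 rose in Ft1ko (1.10, adjusted p = 0.0233) and Mycn in Ft1sm22ko (2.15, adjusted p = 1.34e-06). Nrf1 (0.46 and 0.16), Yy1 (0.51 and 0.38), Gabpb1 (0.64 and 0.38), Pprc1 (0.02 and 0.07), Myc (0.78 and -0.05) and Atf4 (-0.78 and -0.70) passed in neither mutant. RNA levels do not show the activity of these factors.

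Markers of cardiomyocytes moved with the members. In Ft1ko all 11 markers fell (median -2.52), and their summed level was 291855 normalized counts in Ft1ko, against 1513580 in WT hearts. In Ft1sm22ko 7 of 11 fell (median -1.35), with 860848 against 2037180, and between the mutants 8 of 11 were higher in Ft1sm22ko (median 1.17), with 1386220 against 628205. Ttn, Tnnt2, Myh6 and Tnni3 were abundant in all groups, and none was at 0. In bulk tissue, a smaller share of cardiomyocytes in the sample and less of these RNAs per cardiomyocyte cannot be told apart. Markers of other cell types did not all move one way. Among all genes tested, 16.1% fell and 19.7% rose in Ft1ko, and 16.0% fell and 16.2% rose in Ft1sm22ko. Of 8 fibroblast markers 6 rose in Ft1ko (median 1.85, summed level 106597 in Ft1ko against 31894 in WT) and 8 in Ft1sm22ko (median 1.92, 154483 in Ft1sm22ko against 42957 in WT). Of 9 endothelial markers none rose and 3 fell in Ft1ko (median -0.14, 23764 in Ft1ko against 38756 in WT), and 2 rose and 3 fell in Ft1sm22ko (median 0.24, 44573 in Ft1sm22ko against 52221 in WT). Of 7 smooth muscle markers 4 rose and 2 fell in Ft1ko (median 1.39), and 2 rose and 1 fell in Ft1sm22ko (median 0.23). Of 8 macrophage markers 1 rose in each mutant (medians 0.36 and 0.32). Of 13 atrial markers 9 rose and 1 fell in each mutant (medians 1.78 and 1.92), with a median of 0.04 between the mutants. Their summed level was 68244 normalized counts in Ft1ko against 6280 in WT, and 92269 in Ft1sm22ko against 8459 in WT. Myl7, with the smallest p among them, averaged 18782 in Ft1ko against 55.6 in WT, and 16445 in Ft1sm22ko against 75.4 in WT. Of 8 ventricular markers 3 fell and none rose in Ft1ko (median -1.81). In Ft1sm22ko 2 of the 7 with a p fell and none rose (median of all 8 -0.21). Myh7, with 2.35, had no p there. Between the mutants 4 of 8 were higher in Ft1sm22ko (median 1.22). Pln and Myl3 are also among the cardiomyocyte markers. All 8 markers of lung epithelium rose in Ft1ko (median 8.19), with 56157 normalized counts in Ft1ko and 568.0 in WT hearts. In Ft1sm22ko 1 of them had a p and rose (summed level 6429 against 780.2 in WT). Against Ft1ko, 3 of 8 were lower in Ft1sm22ko (median -5.36). Of 8 epicardial and mesothelial markers 6 rose in each mutant (medians 3.21 and 3.27). Of 8 adipocyte markers 5 rose in Ft1ko and 3 in Ft1sm22ko, and all 3 erythroid markers with values rose in both. The 9 thymocyte markers had no p in Ft1ko (summed level 5424 against 80.1 in WT), and 1 of 8 rose in Ft1sm22ko. The part of these cell types in the lower levels of the members was not tested.

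Transcript length moved with the fold changes too. Among all genes averaging at least 100 normalized counts, those with a longest coding transcript of at most 1000 bases had a median log2 fold change of -0.89 in Ft1ko, against 0.05 for those over 5000 bases. The 24 members of at most 1000 bases had a median of -1.45, and the 29 from 1000 to 2000 bases one of -1.0, where all genes of that class had -0.34. In the classes of 2000 to 3000, 3000 to 5000 and over 5000 bases, the members had -1.06, -1.04 and -1.08, and all genes had -0.07, -0.01 and 0.05. In Ft1sm22ko the members of at most 1000 bases had -0.53, and all genes of that class -0.43. Between the mutants the shortest class had 0.82 for the members and 0.44 for all genes. Centred on the median of their length class, an alternative chosen after seeing the data, 25 members were lower in Ft1ko (median -0.73), 14 in Ft1sm22ko (median -0.20), and 20 were higher between the mutants (median 0.51). On that scale 32.5% of the members and 12.9% of all genes fell in Ft1ko, 18.2% and 14.2% in Ft1sm22ko, where the share was near that of all genes, and 20 of 77 members beside 9.74% of all genes were higher between the mutants. Mrpl22 was then at 0.015 in Ft1ko. The part of transcript length, or of RNA quality, in the changes was not tested.

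**Figure D4:**
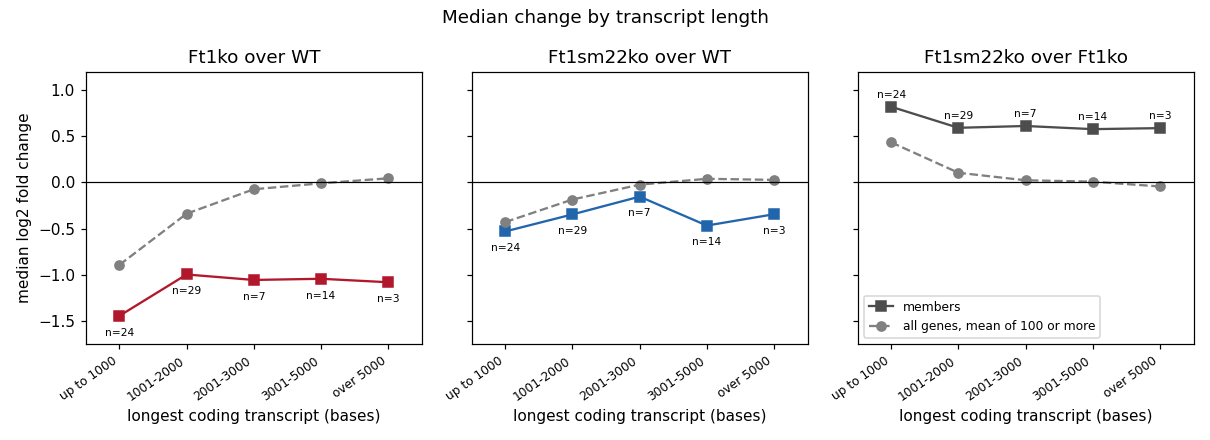
Median log2 fold change of the members and of all genes averaging at least 100 normalized counts, by length of the longest coding transcript in bases, in the 3 comparisons; the number of members stands at each class. The shortest class is lowest in Ft1ko for both (-1.45 for the members and -0.89 for all genes), and in each class the members lie below all genes in both comparisons with WT and above them between the mutants.

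Members with a higher level per length tended to have the larger changes. To keep the level apart from the change, the level was taken from hearts outside the comparison. Across the 77 genes Spearman's rho was -0.51 between the change in Ft1ko over WT and the level per kilobase in Ft1sm22ko hearts, and -0.39 between the change in Ft1sm22ko over WT and the level per kilobase in Ft1ko hearts. Between the mutants rho with the WT level per kilobase was 0.30. With transcript length it was 0.30, 0.17 and -0.28 in the same order of comparisons. The points are genes measured in the same libraries, not replicates, and the values are descriptions.

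Many of these genes start close to another gene. For 30 members a gene on the opposite strand starts within 1000 bases, and Mrpl46 and Mrps11 are such neighbours of each other. The 28 neighbours outside the family fell in 8 cases and rose in 2 in Ft1ko (median log2 fold change -0.38), while of their 28 members 17 fell and none rose (median -1.0). In Ft1sm22ko the neighbours had 8 lower and 4 higher (median -0.34), and the members 8 lower (median -0.37). Between the mutants 5 neighbours were higher and 1 lower (median 0.05), and 15 members were higher (median 0.65). Among all genes tested, 16.1% fell and 19.7% rose in Ft1ko, and 16.0% fell and 16.2% rose in Ft1sm22ko. From Ft1ko to Ft1sm22ko 10.8% of all genes were higher and 9.0% lower. Mrpl51 had -2.03 in Ft1ko and its neighbour Ncapd2, a condensin subunit, 0.89 (adjusted p = 0.169). Mrpl36 and Mrpl47 face subunits of complex I, and with -1.39 and -1.14 they stood beside Ndufs6 with -2.33 and Ndufb5 with -2.10. Mrpl18 had -1.23 and Tcp1, of the cytosolic chaperonin, -0.01. In the pairs with Ndufs6, Ndufb5 and Tcp1 exons of both genes also overlap on opposite strands, as described below. The difference between members and neighbours was not tested.

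For 21 members an exon overlaps that of another gene in the tables, 18 of them only on the opposite strand. The library type was given as fr-secondstrand, which keeps the strand. Whether counting used the strand is not given in the sources used here, so counts of these members may hold reads of the partner. The 56 members without overlap gave like values, with 36 lower in Ft1ko (median -1.17), 19 lower in Ft1sm22ko (median -0.47) and 27 higher between the mutants (median 0.63).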

How the data were processed

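RNA of hearts from 3 Ft1ko, 4 Ft1sm22ko and 3 WT mice, grouped by the genotype in the labels, had been prepared with TRIzol and the Universal Plus mRNA-Seq kit. The authors aligned reads with STAR, counted them per gene with htseq-count and fitted DESeq2 to each pair of groups. The records also name StringTie, and the genome they name is hg38, although the deposited gene names are mouse symbols. The deposited tables hold a mean signal (counts divided by DESeq2 size factors, averaged over the hearts of a pair), a log2 fold change with its standard error, a score (the Wald statistic) and p-values, all made by the authors. Values per heart were not analysed here, so no count model was fitted, and the comparisons rest on the authors' Wald p. The deposited fold changes have the group named first on top and were turned to mutant over WT and Ft1sm22ko over Ft1ko. The p-values were adjusted by Benjamini-Hochberg over the 16748, 16661 and 17169 genes with a p, in the order Ft1ko and Ft1sm22ko against WT, then Ft1sm22ko against Ft1ko. The deposited adjusted p served only as an alternative. Depth per library is unknown, and precision is given by the standard errors. The replicates are separate labelled hearts.

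The members and all 26 lists were chosen with earlier results of these data known. Named members are, per comparison, the 8 lowest and 8 highest fold changes among those called, those near the threshold, and genes picked for their role. Genes of the other lists were picked among those with a small p, not always the smallest of their list. The mitoribosomal proteins under other names, all regulators and Aktip are named too. A member outside these rules is marked as chosen with its values known. Transcript lengths, neighbours and overlaps come from GENCODE M21 of GRCm38 and promoters from RefSeq on GRCm38.p6, which may differ from the annotation used for counting. Steps were checked on simulated data and run in matplotlib 3.10.9, pandas 2.3.3, scipy 1.17.1 and numpy 2.4.6 under python 3.11.15. In that simulation, where few genes changed, 16, 44 and 50 of 100 genes with a log2 fold change of 1 were called. These counts are for Ft1ko and Ft1sm22ko against WT, then Ft1sm22ko against Ft1ko. A member that did not pass may therefore still have changed. Alternatives were a Bonferroni adjustment, the deposited adjusted p, a floor of 10 or 100 on the mean normalized count, a log2 fold change of at least 1, and 3 ways of centring, of which that on transcript length was added after seeing the data.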

Additional observations from a re-analysis of the deposited data

How the results depend on the processing

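The direction of the members' median was kept under every alternative run, and none called a member in the other direction. The called count, 48 lower in Ft1ko, 25 lower in Ft1sm22ko and 38 higher between the mutants, changed most with the adjustment, to 8, 4 and 5 with Bonferroni, with the shares of all genes given above. With a log2 fold change of at least 1 it was 43, 8 and 9, and centred on the length class 25, 14 and 20, and at both settings the share of members in Ft1sm22ko (10.4% and 18.2%) was near that of all genes (8.73% and 14.2%). The other alternatives gave 39 to 54, 21 to 27 and 35 to 47, beside 13.6% to 23.1%, 14.4% to 22.2% and 9.9% to 15.9% of all genes. Medians ran between -1.23 and -0.73 in Ft1ko, between -0.50 and -0.20 in Ft1sm22ko and between 0.51 and 0.68 between the mutants. Single members turned sign with the length class centring, to 0.015 for Mrpl22, 0.11 for Mrpl52 and 0.24 for Mrps18c in Ft1ko, and to 0.26 for Mrpl52, 0.17 for Mrps12, 0.073 for Mrps18b, 0.043 for Mrps23 and 0.065 for Mrps36 in Ft1sm22ko, none with an adjusted p under 0.05. Centred on the median of all genes, Mrps18c in Ft1sm22ko was at -0.000491. The cause of these shifts was not tested beyond the centring itself. No paired analysis was possible because the tables used here hold no values per heart, and leaving out each heart in turn was not run for the same reason.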
